A study of Mus musculus with 3 samples.

Results

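Coch+ tenocytes are tendon-type stromal cells that carry RNA of Coch, which encodes cochlin, a secreted matrix protein named for its abundance in the inner ear. They were taken from 2 single-cell libraries of the mouse hind paw by raw unique molecular identifiers (UMIs, 1 per captured RNA molecule). A member had at least 2 UMIs of Coch, at least 3 of Fmod and at least 1 of Kera, Tnmd or Wif1, and 0 of Ptprc, Pecam1 and Ibsp, which mark leukocytes, endothelium and bone-forming cells. The rule found 146 cells among the 18540 stromal cells that passed the filters, 116 of 11172 at day 5 and 30 of 7368 at day 0. They were set against 1656 cells at day 5 and 1149 cells at day 0 with at least 3 UMIs of Fmod and 0 of Coch, called Coch 0 cells here. The day 5 library came from mice given serum of arthritic K/BxN mice, a transfer that causes a joint inflammation driven by autoantibodies, and the day 0 library from mice at steady state. Both held CD45- cells, sorted after the paws had been cleared of skin, muscle and tendon and digested with collagenase IV and DNase I, and how much tendon entered each library was not measured. The series' other library held day 9 myeloid cells, sorted as CD45+CD11b+Ly6G-. There was 1 library per group, and the labels give neither the strain and age of the mice nor how many were pooled.

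Tenocytes make the collagen fibrils of tendon and the small proteoglycans and glycoproteins that space and bind them. Fibromodulin (Fmod) and keratocan (Kera) are small leucine-rich proteoglycans, tenomodulin (Tnmd) is a membrane protein known as a marker of mature tenocytes, and Wif1 is a secreted inhibitor of Wnt ligands. Scleraxis (Scx) and Mohawk (Mkx) are transcription factors of tendon development, and thrombospondin 4 (Thbs4) is a tendon matrix glycoprotein. Tendons, their sheaths and their insertions border the joint lining in the paw and are known to be involved in serum transfer arthritis.

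The starts of 4 genes are shown: Coch, which defines the cells, Thbs4, which was higher in them, and Tnmd and Wif1 from the rule. Fmod and Kera, also of the rule, were not looked up. Each sequence runs from 250 to 51 bases before the RefSeq start in GRCm38.p6, 5′ to 3′ on the gene's strand, and all 4 genes were found in the RefSeq table. Capitals mark CANNTG, the E-box that scleraxis and other basic helix-loop-helix factors bind, which reads the same on both strands.
Coch: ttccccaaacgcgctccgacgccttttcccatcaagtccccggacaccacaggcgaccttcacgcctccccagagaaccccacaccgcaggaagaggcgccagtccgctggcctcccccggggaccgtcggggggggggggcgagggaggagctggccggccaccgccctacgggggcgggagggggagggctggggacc
Thbs4: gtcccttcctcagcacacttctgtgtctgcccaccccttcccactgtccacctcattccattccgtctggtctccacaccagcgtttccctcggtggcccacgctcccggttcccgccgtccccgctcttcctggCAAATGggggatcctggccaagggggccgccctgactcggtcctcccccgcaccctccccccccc
Tnmd: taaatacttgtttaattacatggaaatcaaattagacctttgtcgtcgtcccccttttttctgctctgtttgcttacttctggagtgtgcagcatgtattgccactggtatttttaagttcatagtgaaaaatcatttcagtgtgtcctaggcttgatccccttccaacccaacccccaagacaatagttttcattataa
Wif1: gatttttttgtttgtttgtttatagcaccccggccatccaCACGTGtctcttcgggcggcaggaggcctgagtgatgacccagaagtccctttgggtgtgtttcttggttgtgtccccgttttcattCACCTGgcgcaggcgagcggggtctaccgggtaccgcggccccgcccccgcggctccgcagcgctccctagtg
The Coch window lies at chr12:51593091-51593290 on the plus strand, the Thbs4 window at chr13:92794869-92795068 on the minus strand, the Tnmd window at chrX:133850758-133850957 and the Wif1 window at chr10:121033754-121033953, both on the plus strand. Wif1 held 2 E-boxes, CACGTG and CACCTG, and Thbs4 held 1, CAAATG. No CANNTG was found in the windows of Coch and Tnmd. Across 32851 windows of the same length, 59.0% held at least 1 E-box and 24.3% at least 2, so the matches are a description of these letters.

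The 2 stromal libraries held 122224428 UMIs at day 5 and 77842586 at day 0. Kept cells had medians of 9303.5 UMIs at day 5 and 9802 at day 0. Coch+ tenocytes had medians of 8856.5 UMIs at day 5 and 10701.5 at day 0, and Coch 0 cells 9942.5 and 10177. Their mitochondrial shares were near each other, with medians of 3.53% at day 5 and 3.47% at day 0 in the members. The stromal libraries shared 32 cell barcodes, none of a member, and 1 day 5 member shared its barcode with a cell of the myeloid library. All levels below are counts per 1000000 (CPM), a gene's UMIs in all cells of a class and library, divided by the UMIs of all genes there. The sums held 1424911 UMIs at day 5 and 363060 at day 0 in the members. Intervals are 95% and cover counting error only. Because each day is 1 library, day cannot be told apart from library or from the animals used, and no test of the day was run.

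The label under which the cells were proposed names both Coch and Kera, but only about 1 in 2 members carried Kera RNA. Kera was detected in 52 of 116 members at day 5 (44.8%) and in 16 of 30 at day 0 (53.3%). Tnmd was detected in 102 of 116 members at day 5 and 28 of 30 at day 0, and Wif1 in 102 and 25. The largest patterns were all 3 genes together, with 44 members at day 5 and 13 at day 0, and Tnmd with Wif1 but no Kera, with 44 and 10. No member qualified through Kera alone, 8 and 2 qualified through Tnmd alone, and 12 and 2 through Wif1 alone. The cells are therefore called by Coch and not by Kera. Thbs4 was detected in all 146 members, against 74.7% of Coch 0 cells at day 5 and 67.2% at day 0. Comp, which encodes cartilage oligomeric matrix protein, was detected in all members too, but also in 99.6% and 99.7% of Coch 0 cells. Scx was detected in 71 members at day 5 (61.2%) and 25 at day 0 (83.3%), and Mkx in 66 (56.9%) and 16 (53.3%). In Coch 0 cells the shares were 39.79% and 51.61% for Scx and 34.24% and 34.55% for Mkx.

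Coch itself varied widely among the cells chosen on it. Members carried 2 to 355 Coch UMIs at day 5, with a median of 31.5, and 2 to 536 at day 0, with a median of 69.5. Of the 116 day 5 members, 5 had exactly 2 Coch UMIs, 69 had at least 20 and 19 at least 100. At day 0, 1 of 30 had 2, 21 had at least 20 and 11 at least 100. Below the threshold there were more cells than just above it: 30 cells at day 5 and 14 at day 0 with enough Fmod had a single Coch UMI. Just inside it, 8 members at day 5 and 2 at day 0 had 3 or 4 UMIs. With a single Coch UMI admitted the rule gave 143 cells at day 5 and 39 at day 0. Fmod ran from 3 to 277 UMIs with a median of 59 at day 5, and from 6 to 289 with a median of 65 at day 0. A further 9 cells at day 5 and 7 at day 0 passed on Coch and Fmod but had none of Kera, Tnmd and Wif1, 9 and 0 passed all but the 3 genes that had to be at 0, and 2 and 0 had 2 Fmod UMIs. The members held 6308 of the 8492 Coch UMIs of all kept cells at day 5 (74.3%) and 3214 of 4028 at day 0 (79.8%). For comparison, a Coch UMI was found in 8 of 749 cells with at least 2 UMIs of Ibsp at day 5 (1.07%) and in 7 of 571 at day 0 (1.23%).

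**Figure D1:**
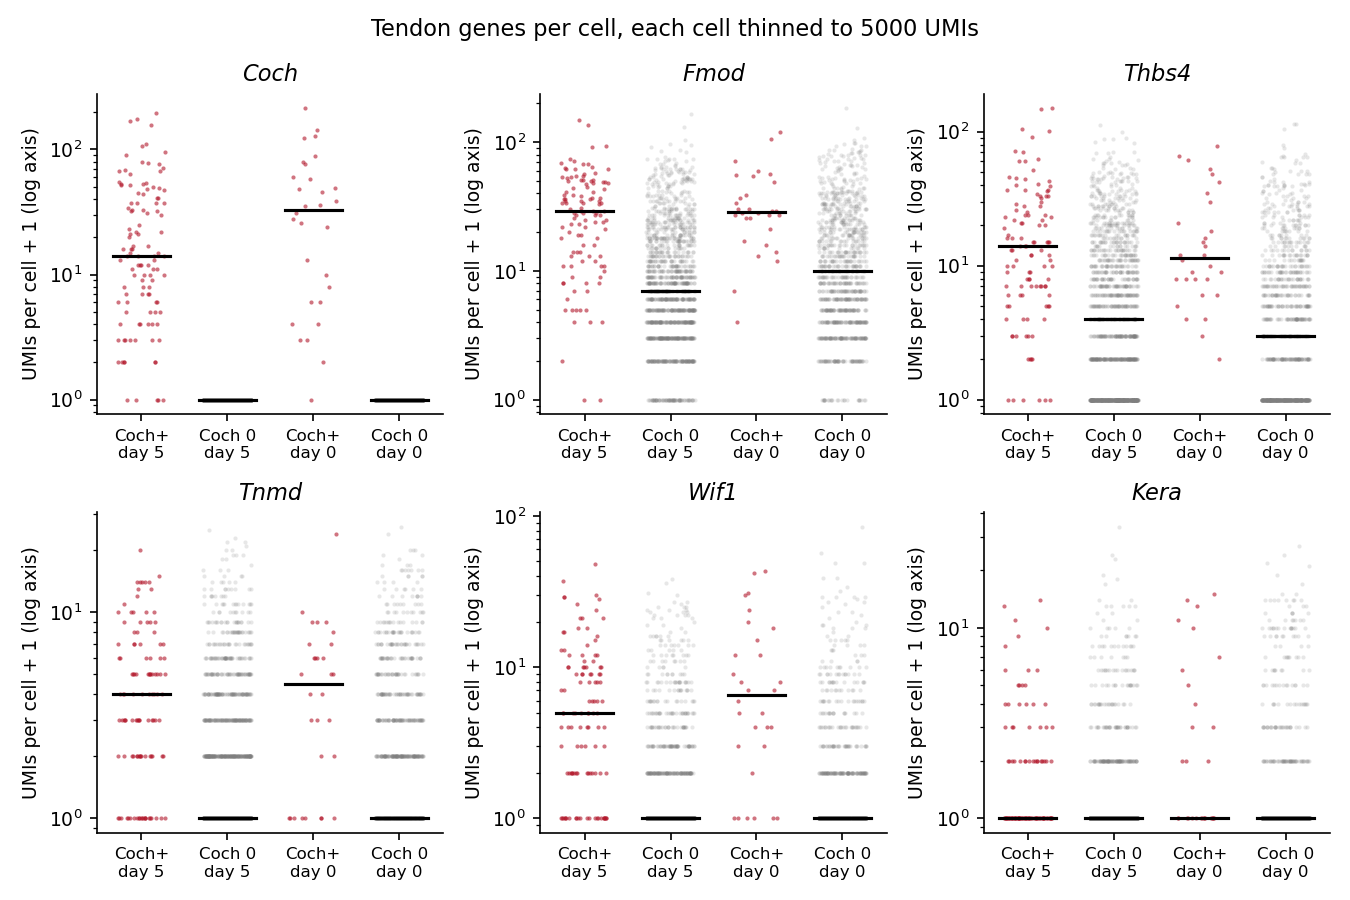
UMIs of the rule's genes and of Thbs4 in single Coch+ tenocytes and Coch 0 cells at day 5 and at day 0, each cell thinned to 5000 UMIs, on a log axis with 1 added. Points are cells and bars are medians, which in Coch+ tenocytes were 13 for Coch at day 5 and 32 at day 0, and 0 for Kera at both.

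Coch+ tenocytes made up a larger share of the day 5 library. They were 1.04% of kept cells at day 5 (0.859 to 1.24%) and 0.407% at day 0 (0.275 to 0.581%), a ratio of 2.55 (1.69 to 3.95). Among the cells with at least 3 Fmod UMIs they were 6.37% of 1820 at day 5 (5.29 to 7.60%) and 2.50% of 1200 at day 0 (1.69 to 3.55%), also a ratio of 2.55. The rule rests on raw UMIs, so it was repeated after thinning each cell to 5000 UMIs. It then found 102 of 9990 cells at day 5 (1.02%) and 27 of 6792 at day 0 (0.398%). The shares are shares of sorted cells that survived dissection, digestion and sorting, and the yield of tendon in each library was not measured.

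Against Coch 0 cells, the Coch+ tenocytes carried more RNA of the tendon matrix genes Thbs4 and Cilp2 and of the transcription factors Scx and Mkx. Other tendon matrix genes did not follow: Comp was level, and Col14a1 and Fbln7 were lower, as given below. Thbs4 was at 3866 CPM in the members and 1432 CPM in Coch 0 cells at day 5, a ratio of 2.70 (2.62 to 2.78), and at 3727 and 1371 CPM at day 0, a ratio of 2.72 (2.57 to 2.87). The members' Thbs4 level was thus 2.7 times that of Coch 0 cells in each library. Scx was 1.88 times as high in the members at both days, at 128 against 68.0 CPM at day 5 and 212 against 113 CPM at day 0. Mkx was 2.16 times as high at day 5 and 2.03 times at day 0. Cilp2, a gene of the cartilage intermediate layer protein family, was at 807 CPM in members and 348 CPM in Coch 0 cells at day 5, and at 1672 and 734 CPM at day 0. Comp showed no such difference, with ratios of 1.01 at day 5 and 0.92 at day 0. The genes of the rule had ratios that the choice of cells fixes in part: Wif1 5.18 at day 5 and 5.21 at day 0, Kera 2.56 and 3.66, Tnmd 2.30 and 2.43, and Fmod 2.57 and 2.13.

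Of 11920 genes with at least 20 UMIs over both sums in each library, 275 (2.31%) were at least 1.5-fold higher in the members in both libraries and 1180 (9.90%) at least 1.5-fold lower. The value of 1.5 is used as a size and not as a call. The median gene stood at -0.12 at day 5 and -0.21 at day 0 on the log2 scale. Rescaling by DESeq2 or TMM factors moved all of these log2 ratios up by about 0.12 in both libraries, and then 406 genes were higher and 941 (DESeq2) or 943 (TMM) lower.

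Among the genes with at least 50 CPM in the higher class, those with the largest ratios in both libraries encoded proteins of several kinds, and no theme was tested over them. Col11a2, a chain of fibrillar collagen XI, was at 56.9 CPM in members and 14.7 CPM in Coch 0 cells at day 5, a ratio of 3.87 (2.99 to 4.96), and at 60.6 and 9.15 CPM at day 0, a ratio of 6.62 (4.00 to 10.5). Emx2, a homeobox transcription factor, had ratios of 3.47 at day 5 and 4.24 at day 0. Sema3a, a secreted protein that repels growing axons, was at 104.6 CPM in members and 31.5 CPM in Coch 0 cells at day 5, a ratio of 3.32 (2.76 to 3.97). At day 0 it was at 132 and 30.5 CPM, a ratio of 4.34 (3.15 to 5.86). Myocilin (Myoc), a secreted glycoprotein best known from the drainage tissue of the eye, was at 7374 CPM in members and 2198 CPM in Coch 0 cells at day 5 and at 8635 and 3328 CPM at day 0. Hpgd, the enzyme that inactivates prostaglandins, had ratios of 3.30 at day 5 and 2.15 at day 0, and Ptgfr, the receptor of prostaglandin F, 2.16 and 2.52. The remaining genes of this group were P3h2, a collagen prolyl hydroxylase (2.89 and 3.19), the secreted protein gene Ccdc3 (2.90 and 2.54), Fjx1 (2.61 and 2.60) and Mylk, the myosin light chain kinase (2.17 and 2.67).

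**Figure D2:**
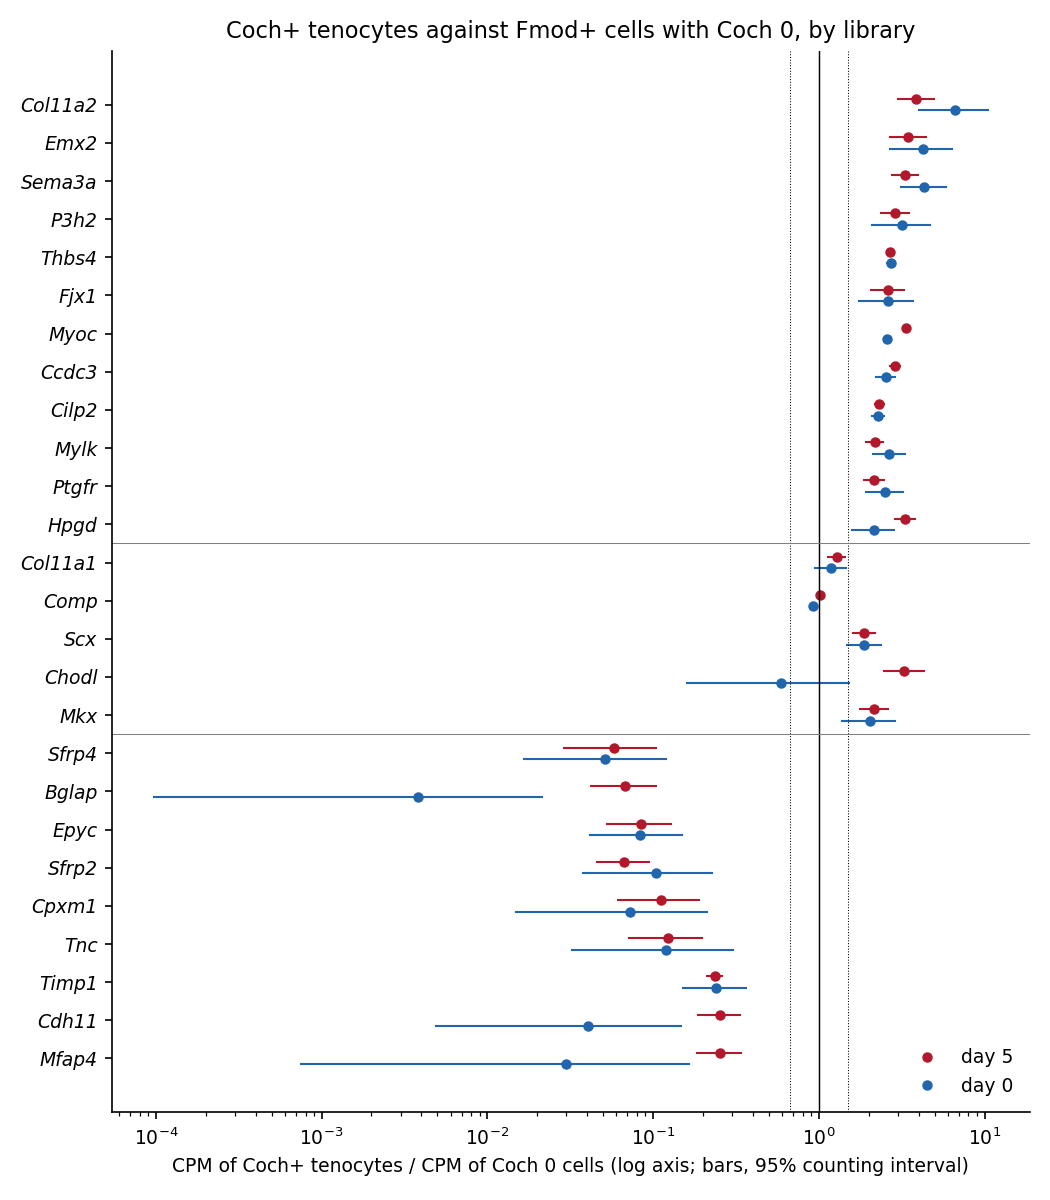
Ratio of CPM in Coch+ tenocytes to CPM in Coch 0 cells at day 5 and day 0, on a log axis: genes named by size (top and bottom blocks; those with 0 UMIs in a member sum are left out) and tendon markers (middle). Points are ratios, bars their 95% counting intervals and dotted lines 1.5-fold. Thbs4 sits at 2.70 at day 5 and 2.72 at day 0, and Sfrp4 at 0.0585 and 0.0515.

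Among the genes lower in the members in both libraries were Sfrp4, Sfrp2, Epyc and Tnc. Sfrp4, a secreted Frizzled-related protein, was at 7.72 CPM in members and 132 CPM in Coch 0 cells at day 5 (17.1-fold lower) and at 13.8 and 268 CPM at day 0 (19.4-fold lower). Sfrp2, of the same family, was 14.9-fold lower at day 5 and 9.64-fold lower at day 0, where all 6 of its UMIs in the members lay in 1 cell. With a single Coch UMI admitted, the Sfrp2 ratio was 0.305 at day 5 and turned to 1.31 at day 0. Epyc, a small proteoglycan of cartilage, was 11.8-fold and 11.9-fold lower. Tenascin C (Tnc) was at 11.9 CPM in members and 96.4 CPM in Coch 0 cells at day 5 and at 11.0 and 92.5 CPM at day 0. Timp1, an inhibitor of matrix metalloproteinases, was at 265 CPM in members and 1123 CPM in Coch 0 cells at day 5, and at 60.6 and 252 CPM at day 0. Cdh11, a cadherin of synovial fibroblasts and osteoblasts, had ratios of 0.252 at day 5 and 0.0405 (0.00491 to 0.147) at day 0, the microfibril gene Mfap4 0.253 and 0.0297 (0.000752 to 0.166), and Cpxm1 0.112 and 0.0723 (0.0149 to 0.212). Ostn and the noncoding RNA H19 had 0 UMIs in the members at both days. With 3 counts set in place of 0, Ostn was 24.8-fold lower at day 5 and 7.88-fold lower at day 0, and H19 36.7-fold and 6.64-fold lower. The lower limits of their intervals were 20.15 and 6.39 for Ostn and 29.8 and 5.38 for H19. Ostn was found in 7.97% of Coch 0 cells at day 5 and 8.96% at day 0, and H19 in 7.13% and 5.48%. At those shares few of the 30 day 0 members would carry either. At day 0 the members' counts of Cdh11 (2 UMIs), Cpxm1 (3), Mfap4 (1) and Bglap (1) were too few for a precise ratio.

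The Coch 0 cells are broader than the members, because they were not required to carry Kera, Tnmd or Wif1 or to lack Ptprc, Pecam1 and Ibsp. Set against Coch 0 cells that met those conditions too, Thbs4 was still 2.22 times as high in the members at day 5 and 1.91 times at day 0, Scx 1.60 and 1.43 times and Mkx 1.77 and 1.74 times. Col11a2 had ratios of 3.77 and 5.53, Sema3a 2.70 and 3.23 and Myoc 2.90 and 2.03. The differences in Sfrp4 (0.0818 and 0.0737), Sfrp2 (0.0623 and 0.0722) and Epyc (0.0707 and 0.0617) were about as large as before. Tnc moved to 0.269 and 0.454 and Timp1 to 0.316 and 0.625. For osteocalcin (Bglap) the day 5 ratio went to 0.973, and for its near copy Bglap2, whose reads may be shared with it, to 1.42. The number of genes at least 1.5-fold lower in both libraries was 752 in this comparison.

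Read by gene list against all Coch 0 cells, the members carried more RNA of some tendon genes and less of many collagen, Wnt and bone genes. The choice of cells fixes the result for bone genes in part, because only the members had to have 0 Ibsp. Of 22 tendon genes compared, 9 were at least 1.5-fold higher in the members in both libraries, 5 of them genes of the rule, and 2 were lower. Outside the rule these were Thbs4, Cilp2, Clu and Fibin, a secreted factor first described in zebrafish fin development (1.73 at day 5 and 1.52 at day 0), while Col14a1 (0.397 and 0.348) and Fbln7 (0.538 and 0.303) were lower. Of 26 tendon transcription factors and signal mediators, 3 were higher, Scx, Mkx and Six2 (2.62 and 2.32), and 2 were lower, Runx2, the bone transcription factor (0.313 at day 5, and 3 UMIs at day 0), and Etv4. Among 23 collagens only Col11a2 was higher and 9 were lower, Col3a1 at 1632 CPM in members against 3541 CPM in Coch 0 cells at day 5 and at 1314 against 4411 CPM at day 0. Over all 11920 genes compared, 2.31% were higher in both libraries and 9.90% lower. In the Wnt list 12 of 30 genes were lower, among them Dkk3, Rspo3, Wnt5a and Wnt16. Only 2 were higher, Wif1, which is a gene of the rule, and the receptor gene Fzd1 (1.57 and 1.52). These list members, and those in the next sentences, were picked as examples after their values were seen.

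Signalling genes of the bone morphogenetic protein pathway also split. The type I receptor gene Bmpr1b had ratios of 2.25 at day 5 and 5.99 at day 0, the ligand Bmp2 1.80 and 1.59 and the co-receptor Tgfbr3 1.66 and 2.58. In that list 5 of 40 genes were higher and 9 lower, Fst, the follistatin gene, at 0.488 and 0.0953. Fgf9 (3.15 and 1.74) and Igfbp5 (2.08 and 1.77) were higher in the members, and Fgfr2 was lower (0.288 at day 5, and 2 UMIs at day 0). Of 23 nerve-acting and guidance genes 3 were higher, Sema3a, Sema3d (1.87 and 2.03) and Ntng1 (2.10 and 4.90), and 6 were lower. Of 14 complement genes 7 were lower and only Clu was higher, and of 26 genes of matrix degradation 8 were lower and 0 higher. None of the 12 fibroblast markers differed by 1.5-fold in the same direction in both libraries.

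Levels were also followed along Coch itself, in cells with at least 3 Fmod UMIs and at least 1 of Kera, Tnmd or Wif1. At day 5 Thbs4 was at 1739 CPM in the 1028 cells with 0 Coch UMIs, 1948 CPM in 27 cells with 1, 2273 CPM in 13 cells with 2 to 4, 3219 CPM in 34 cells with 5 to 19 and 4471 CPM in 69 cells with at least 20. At day 0 the 680 cells with 0 Coch UMIs had 1953 CPM and the 21 cells with at least 20 had 4058 CPM, and the 3 bins between held only 9, 3 and 6 cells. Thbs4 was higher in each higher bin at day 5, and this order also held without the thin bin of 13 cells. Comp did not follow Coch, at 6815 CPM in the lowest and 6706 CPM in the highest bin at day 5 and at 8863 and 8477 CPM at day 0. Cilp2 was at 404 CPM in the lowest and 839 CPM in the highest bin at day 5, and at 889.5 and 1561 CPM at day 0. The cells thus formed a range in Coch and Thbs4 RNA, and the bins share their libraries and the gating on Fmod.

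**Figure D3:**
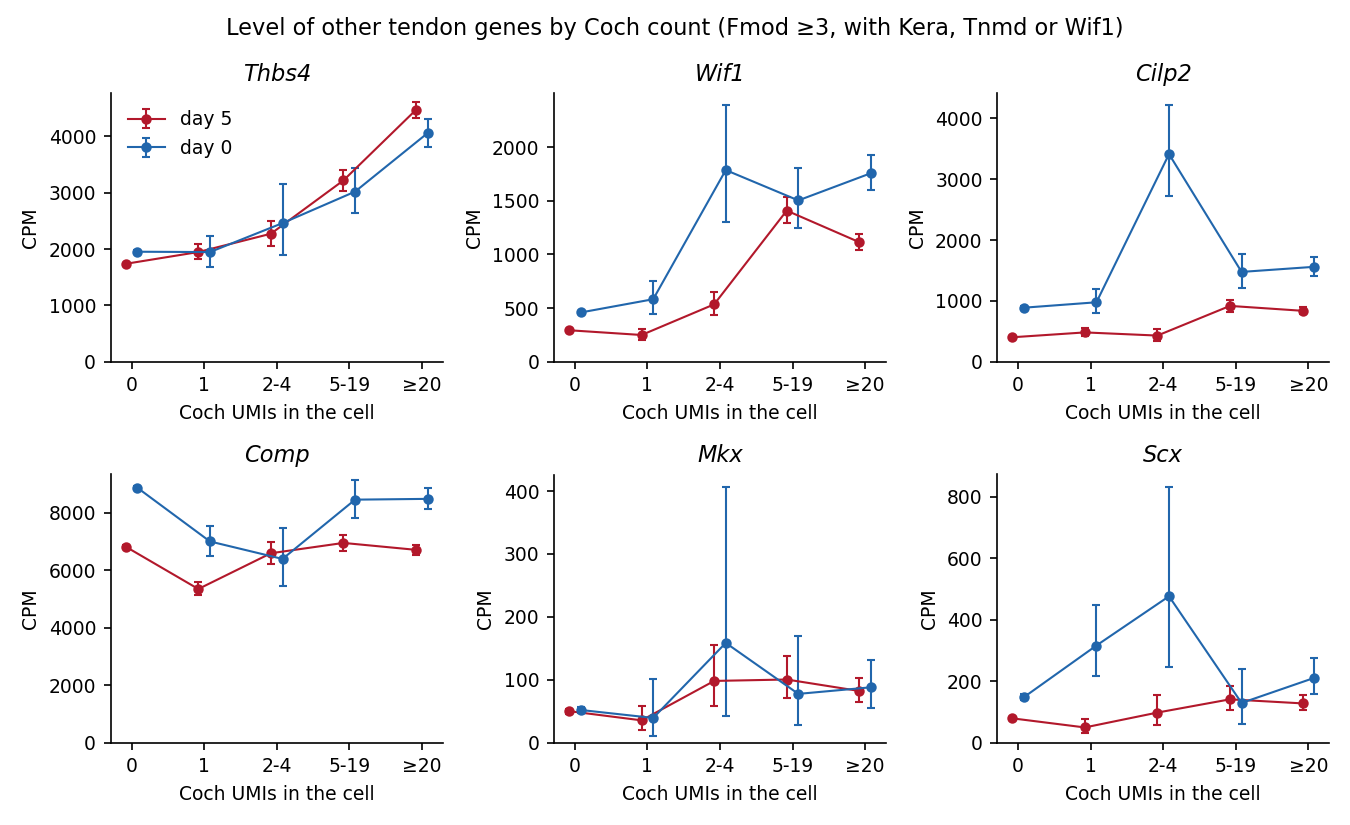
CPM of Thbs4, Wif1, Cilp2, Comp, Mkx and Scx in bins of Coch UMIs per cell at day 5 and day 0, with 95% counting intervals. Thbs4 at day 5 runs from 1739 CPM at 0 Coch UMIs to 4471 CPM at 20 or more, and Comp from 6815 to 6706 CPM.

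Members differed among themselves along the genes of the rule. Those with at least 2 Kera UMIs were set against those with 0, 37 against 64 cells at day 5 and 14 against 14 at day 0. The cells with Kera carried more Spon2, a secreted matrix protein (ratios of 9.28 and 2.93), more S100a5 (2.79 and 5.14) and more Col3a1 (2.06 and 3.84). They carried less Thbs1, the thrombospondin 1 gene, at 107 CPM against 476 CPM at day 5 and 98.99 CPM against 265 CPM at day 0. The glucocorticoid-induced gene Tsc22d3 was also lower with Kera (0.413 and 0.377). With at least 2 Tnmd UMIs against 0, in 92 against 14 cells at day 5 and 23 against 2 at day 0, the chemokine gene Cxcl12 had ratios of 3.11 and 2.91 and Mmp2 2.53 at day 5. With at least 2 Wif1 UMIs against 0, in 97 against 14 cells at day 5 and 24 against 5 at day 0, Nrep was at 46.8 against 6.07 CPM and 480 against 46.5 CPM, and Adm, the adrenomedullin gene, at 53.3 against 152 CPM and 51.8 against 139 CPM. In the members without Wif1 the Nrep level rested on 1 UMI at day 5 and 3 UMIs at day 0. Members without Tnmd or Wif1 were few, 2 for Tnmd and 5 for Wif1 at day 0, so these ratios rest on few cells. The rule also chose the 2 sides unlike, because a member without 1 of the 3 genes had to carry another. The genes named were among the 5 with the largest ratios in each direction, of 2155 ranked for Kera, 1989 for Tnmd and 2187 for Wif1.

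Of the markers of other cell types, those of leukocytes, endothelium and muscle were sparse in the members, and those of other types were not. Summed over the marker panels, leukocyte genes had 7 UMIs at day 5 and 1 at day 0 over 18 genes, endothelial genes 1 and 3 UMIs over 12, and muscle genes 6 and 2 over 13. The rule set Ptprc and Pecam1 to 0 in the members, so the leukocyte and endothelial sums are fixed in part. Coch 0 cells were sparse too, with leukocyte genes at 6.74 and 3.26 CPM, against 4.91 and 2.75 CPM in members. Their endothelial genes were at 10.8 and 11.9 CPM, against 0.702 and 8.26 CPM, and muscle genes at 17.6 and 11.5 CPM, against 4.21 and 5.51 CPM. Of 16 cartilage genes, 10 were detected at each day, and Col9a1, Col9a3, Matn1, Cnmd and Snorc were at 0 at both. The cartilage genes summed to 5261 CPM in members and 4335 CPM in Coch 0 cells at day 5, and to 5200 and 3621 CPM at day 0. Most of each sum was of lubricin (Prg4), which is in this panel and is given below, so the sums say little of the other cartilage genes. Of 11 cartilage genes compared, 2 were at least 1.5-fold higher in the members in both libraries and 5 lower. The 11 mural genes summed to 446 CPM in members and 372 CPM in Coch 0 cells at day 5, and to 543 and 407 CPM at day 0, with a UMI in 94.0% and 100% of members. Most of these were of Ndufa4l2 (298 CPM at day 5 and 339 CPM at day 0), while the defining mural markers Rgs5 and Myh11 were at 0. The 8 Schwann cell genes summed to 136 CPM in members and 150 CPM in Coch 0 cells at day 5, and to 140.5 and 158 CPM at day 0, with a UMI in 63.8% and 66.7% of members and the Schwann cell factor Sox10 at 0. Lubricin (Prg4), a product of joint lining and cartilage surface, was present in all 146 members, at 5051 CPM in members and 3976 CPM in Coch 0 cells at day 5, and at 4980 and 3084 CPM at day 0. The 13 osteoblast genes summed to 880 CPM in members and 2320 CPM in Coch 0 cells at day 5, and to 779.5 and 4419 CPM at day 0. Ibsp was at 0 in the members by the rule, which did not bind the Coch 0 cells, so this difference is fixed in part.

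Between the days, most acute-phase, NF-kB and chemokine genes were higher in the members at day 5, Cilp2 and Scx were at least 1.5-fold lower, and Thbs4 differed little. Coch, Kera and Wif1 were lower too, but the rule chose the cells on raw UMIs of these genes in each library, so their levels in the members are a description. Of 7539 genes with at least 20 UMIs over both member sums, 1492 (19.8%) were at least 1.5-fold higher at day 5 and 832 (11.0%) at least 1.5-fold lower. Coch 0 cells had 4.36% of 7538 genes higher and 3.49% lower, but their sums are far larger, so the shares of the 2 classes are not on a like footing. Among the 4345 genes with at least 10 UMIs expected in each member sum, 608 (14.0%) were higher and 334 lower at day 5. The median log2 ratio over all genes was 0.05.

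Of 21 tendon genes, 6 were at least 1.5-fold lower in the members at day 5 and 5 higher, with a median log2 ratio of -0.31, against -0.39 for the same genes in Coch 0 cells, where 8 were lower and 0 higher. Coch stood at 4427 CPM at day 5, against 8853 CPM at day 0, 2.00-fold lower at day 5 in cells that had all been chosen for it. In the other kept cells Coch was at 18.3 CPM at day 5, against 10.6 CPM at day 0, a ratio of 1.72. Kera was at 240 CPM at day 5, against 600.5 CPM at day 0, 2.50-fold lower, and 1.75-fold lower in Coch 0 cells. Wif1 had a day ratio of 0.655 in members and 0.659 in Coch 0 cells. In the members 20.2% of its day 0 UMIs lay in 1 cell, and without the highest cell of each library its ratio was 0.785, short of 1.5-fold. That step takes out the gene's UMIs of 1 of 30 members at day 0 and of 1 of 116 at day 5, with the totals unchanged. It thus tends to raise day ratios, and the Thbs4 ratio went from 1.04 to 1.16. Cilp2 had a day ratio of 0.483 in members and 0.474 in Coch 0 cells. Tnmd, at 699 CPM at day 5, against 879 CPM at day 0, and Fmod, at 5144 and 6376 CPM, differed less. Thbs4 was at 3866 CPM at day 5, against 3727 CPM at day 0, a ratio of 1.04, with 1.05 in Coch 0 cells. Scx was 1.66-fold lower at day 5 in members and likewise in Coch 0 cells (1.66), and Mkx had a ratio of 0.981. Chodl, a membrane lectin, was one of the 5 higher genes, with 67 UMIs in 17 cells at day 5 and 4 UMIs in 3 cells at day 0, a ratio of 4.27 (1.59 to 16.1) against 0.766 in Coch 0 cells. With a single Coch UMI admitted, the Chodl ratio turned to 0.554.

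Of the genes of collagen I, Col1a1 was at least 1.5-fold lower and Col1a2 was not. Col1a1 was at 5106 CPM at day 5, against 10640 CPM at day 0, a ratio of 0.480 (0.461 to 0.499), with 21.7% of its day 0 UMIs in 1 cell, and 0.552 without the highest cell of each library. Coch 0 cells had a Col1a1 ratio of 0.687. Col1a2 had 0.686 in members, or 0.784 without the highest cell, and 0.775 in Coch 0 cells. Col3a1 was at 1632 CPM at day 5, against 1314 CPM at day 0, a ratio of 1.24. Decorin (Dcn), a small proteoglycan of collagen fibrils, was at 40350 CPM at day 5, against 42570 CPM at day 0. Over the 19 collagen genes 5 were higher and 2 lower, with a median log2 ratio of 0.15, among the higher Col4a2 (2.28) and Col5a3 (5.01, 1.63 to 24.99), with 3 Col5a3 UMIs at day 0. Of 35 genes of TGF-beta and bone morphogenetic protein signalling 6 were higher and 12 lower. Over all 7539 genes compared 19.8% were higher and 11.0% lower. The collagen counts and the 6 higher genes here lie near those shares and are not read as a result about the members. Bmpr1b, a receptor gene higher in the members than in Coch 0 cells, was at 47.0 CPM at day 5, against 121 CPM at day 0, a ratio of 0.388 (0.261 to 0.581), while in Coch 0 cells it was at 20.9 and 20.2 CPM. Inhbb, which encodes an activin subunit, and Fst, an activin antagonist, were higher in the members (2.90 and 5.40), with ratios of 1.03 and 1.06 in Coch 0 cells.

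Large day ratios were read among genes with at least 50 CPM in the higher library that no other class exceeded more than 10-fold, and those of a matrix enzyme, acute-phase genes and a fibroblast marker are given first. Stromelysin 1 (Mmp3), a matrix-degrading enzyme, was at 253 CPM at day 5, against 19.3 CPM at day 0, a ratio of 13.1 (6.31 to 32.9), in 21 of 116 and 3 of 30 members, and 4.90 in Coch 0 cells. Serpina3n, an acute-phase protease inhibitor, was at 306 CPM at day 5, against 49.6 CPM at day 0, a ratio of 6.17 (3.86 to 10.5), in 45 and 6 members, and 4.81 in Coch 0 cells. Both genes were higher at day 5 in Coch 0 cells too. Of the 7 Mmp3 UMIs at day 0, 71.4% lay in 1 cell, and without the highest cell of each library the Mmp3 ratio was 36.95 and that of Serpina3n 7.19. Because this step tends to raise day ratios, it is a weak check on genes higher at day 5. Pi16, a marker of adventitial fibroblasts, was at 320 CPM at day 5, against 30.3 CPM at day 0 in the members, a ratio of 10.6 (5.85 to 21.3). The share of members with a Pi16 UMI differed little, 18 of 116 at day 5 (15.5%) and 4 of 30 at day 0 (13.3%). A single cell held 29.6% of the day 5 UMIs and another 45.5% of those at day 0. Without the highest cell of each library the Pi16 ratio was 13.6 (6.19 to 37.4), and it rests on few cells. In Coch 0 cells Pi16 was at 314 and 298 CPM, and the ratio of the day ratios was 10.0 (5.52 to 18.3). Ddit4l, a stress-induced inhibitor of growth signalling, was found in 53 of 116 members at day 5 and 4 of 30 at day 0, a ratio of 7.84 (2.98 to 29.2) against 1.21 in Coch 0 cells, and the ratio of the day ratios was 6.45 (2.37 to 17.5). Irf1, an interferon-response transcription factor, was found in 40 and 3 members, with a ratio of 7.56 (2.50 to 37.4) against 1.36. The others were Efemp1 (12.5, 3.37 to 104.5), Angptl4 (9.94, 2.66 to 83.5), Lcn2 (9.30, with 45.2% of day 5 UMIs in 1 cell), Ddit4 (6.71, 2.21 to 33.2), Tnfaip6 (6.46, 2.13 to 32.0) and Fst, with 2 to 5 UMIs each at day 0. Saa1, an acute-phase serum amyloid whose reads can be shared with Saa2, had 169 UMIs at day 5 and 0 at day 0, but 88.2% of them lay in 1 cell. With 3 counts in place of 0 it was 14.4-fold higher, and the lower limit of its interval was 11.55.

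In the other direction, Nrep, a small protein gene linked to wound repair, was at 44.2 CPM at day 5, against 399 CPM at day 0, 9.03-fold lower, and was found in 35 of 116 and 20 of 30 members. Nrep was also lower in Coch 0 cells, with a ratio of 0.184. S100a5, a calcium-binding protein gene, was at 63.2 CPM at day 5, against 397 CPM at day 0, 6.28-fold lower, with 0.300 in Coch 0 cells and 38.2% of its day 0 UMIs in 1 cell. Rasl11b (0.275), Tspan2 (0.324), Cys1 (0.328) and Mpzl1 (0.359) were lower with no cell above 50% of the day 0 UMIs. For the other 6 genes 1 cell held most of the day 0 UMIs: Cytl1 (100%), Rbp4 (96.4%), Alpl (93.9%), Scg3 (70.3%), Vcan (58.7%) and Rgcc (55.8%). Without its highest cell in each library the Rbp4 ratio was 4.08, above 1, whereas that of Nrep was 0.124 and that of S100a5 0.209.

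**Figure D4:**
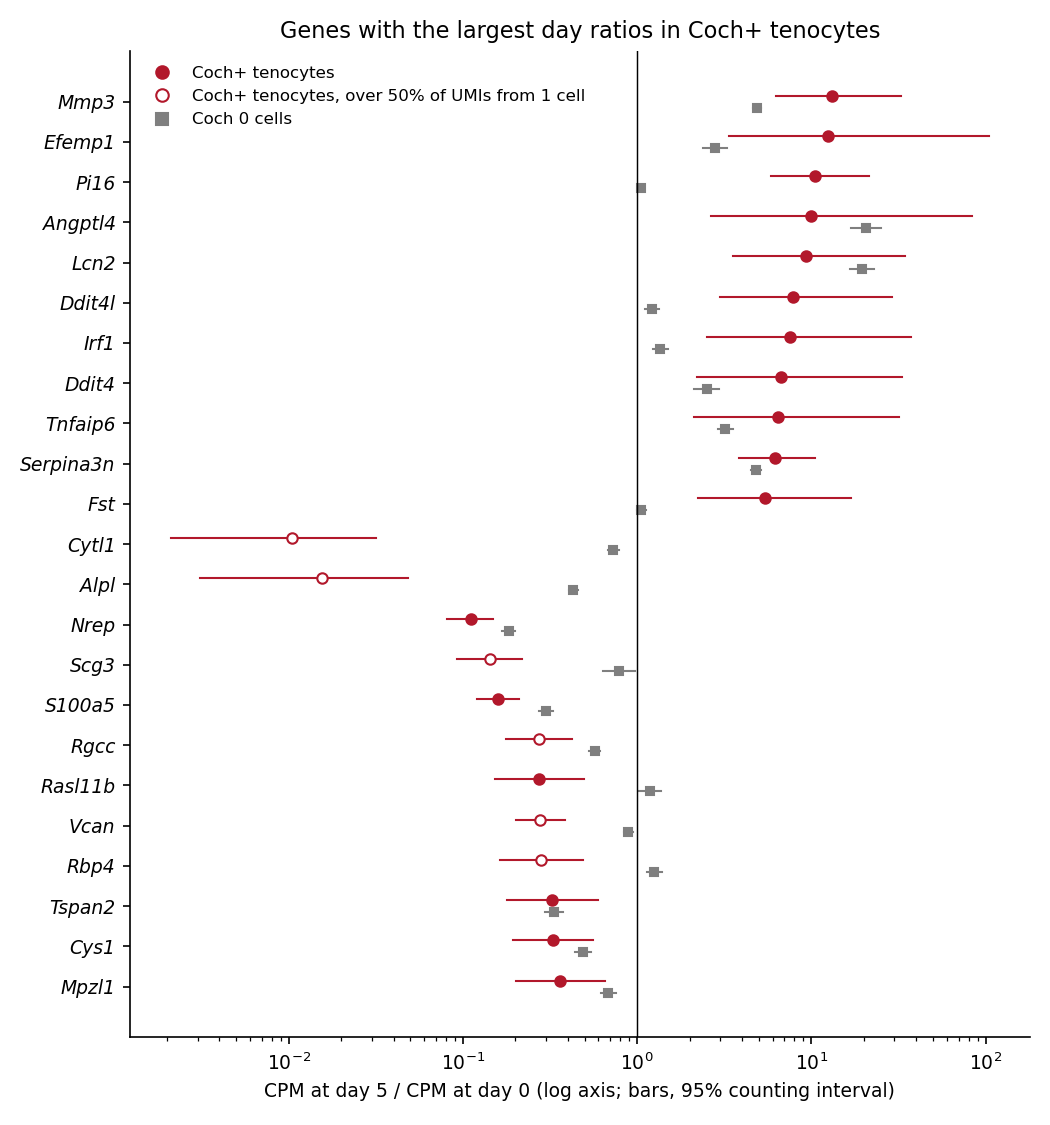
Day 5 over day 0 ratio of CPM in Coch+ tenocytes and in Coch 0 cells for the genes named by size, on a log axis, with 95% counting intervals. Open circles are genes with over 50% of UMIs from 1 cell in the higher library; Saa1, with 0 UMIs at day 0, is left out. Mmp3 lies at 13.1 in the members and 4.90 in Coch 0 cells, and Pi16 at 10.6 and 1.05.

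The inflammatory lists were higher at day 5 in the members. Of 17 acute-phase and defence genes 14 were at least 1.5-fold higher and 0 lower, with a median log2 ratio of 1.52 and 2.10 in Coch 0 cells, where the same number of genes was higher. Their summed level was 7594 CPM at day 5 and 2622 CPM at day 0 in members and 10990 and 3608 CPM in Coch 0 cells. Metallothionein 1 (Mt1), a zinc-binding stress protein, was at 3951 CPM at day 5, against 1374 CPM at day 0, a ratio of 2.88, in 115 of 116 and 28 of 30 members. Of 17 NF-kB targets 11 were higher and 0 lower, with a median of 0.64 in both classes, Cebpd at 1.56 and Birc3 at 3.70. Of 8 chemokine genes 6 were higher, with a median of 1.71, or 1.49 with genes at 0 at their bound. In Coch 0 cells 7 of the same genes were higher, with a median of 1.39. The summed chemokine level was 1703 CPM at day 5 and 1113 CPM at day 0 in members, and 3896 and 1580 CPM in Coch 0 cells. Cxcl12 was at 736 CPM at day 5, against 501 CPM at day 0 (1.47, and 2.12 in Coch 0 cells), and Ccl7 had a ratio of 3.57 against 30.5 in Coch 0 cells, all of its day 0 UMIs lying in 1 member. Without the cells of highest doublet score the Ccl7 ratio was 0.936 and the median of the chemokine list 0.46, and after thinning to 5000 UMIs that median was 0.60.

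Complement genes followed the same direction, with 7 of 10 higher, 0 lower and a median of 0.84, against 0.28 in Coch 0 cells. C1s1, a protease of the classical pathway, was at 131 CPM at day 5, against 33.05 CPM at day 0 (3.97), while Coch 0 cells had 207.5 and 106 CPM. Clu, at 3004 CPM at day 5, against 3049 CPM at day 0, did not differ by size. Of 19 genes of matrix degradation and its inhibitors 7 were higher and 1 lower. Timp1 was at 265 CPM at day 5, against 60.6 CPM at day 0 (4.38, and 4.47 in Coch 0 cells), and Adamts5, an enzyme that cleaves proteoglycans, had 2.69 against 1.35. Interferon-response genes gave 4 of 14 higher and a median of 0.29, and cytokine and receptor genes gave 5 of 18 and 0.33, Il6st, the shared receptor chain of the interleukin 6 family, at 1.65. Coch 0 cells had medians of 0.29 and 0.39 for these 2 lists. Over all 7539 genes compared, 19.8% were higher in the members at day 5, so these 2 counts are not read as a result about the members.

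Genes induced by tissue dissociation were higher at day 5 in the members as well. Of 30 such genes 17 were higher and 0 lower, with a median of 0.73, against 0.34 in Coch 0 cells, where 5 were higher and 2 lower. Their summed level was 17050 CPM at day 5 and 9712 CPM at day 0 in members, and 19500 and 15640 CPM in Coch 0 cells. The immediate early genes Fos (2.15 in members and 1.34 in Coch 0 cells), Fosb (2.75 and 1.57), Zfp36 (3.45 and 1.54) and Egr1 (2.68 and 1.60) passed 1.5-fold in the members, and the heat shock gene Hspa1a did not (0.753). Several of these genes are also induced by inflammation, and the part of dissociation in the day differences was not tested.

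The other lists had smaller medians or mixed directions, and their counts stand beside 19.8% higher and 11.0% lower over all 7539 genes. FGF, IGF and hedgehog genes gave 1 higher and 6 lower of 17, with a median of -0.45 against -0.17 in Coch 0 cells. The feedback inhibitor Spry1 was 2.29-fold lower, Igf1 had a ratio of 0.639 against 1.12 in Coch 0 cells, and Fgf7 was higher (3.06). Clock and glucocorticoid genes gave 6 higher and 9 lower of 21, with the clock genes Per1 (0.420) and Usp2 (0.431) lower and Tsc22d3 (2.21) higher. Elastic fibre genes gave 7 higher and 0 lower of 15, with a median of 0.31 in both classes. None of 22 genes of oxidative phosphorylation passed 1.5-fold, and the proliferation markers Mki67, Cdk1 and Ccnb1 had 0 UMIs in the members at both days. Glycolysis genes had a median of -0.01 in members and 0.42 in Coch 0 cells. Of 5 osteoblast markers 3 were higher and 1 lower, with a median of 1.20 in members and -1.21 in Coch 0 cells. This rested on few UMIs: Bglap had 21 at day 5 and 1 at day 0, Bglap2 39 and 0 and Runx2 27 and 3, with over 50% of those of Bglap and Bglap2 at day 5 in 1 cell, while Spp1, which held most of the list's UMIs, had a ratio of 1.29. Of 12 fibroblast markers 4 were higher and 2 lower (median 0.17), of 6 proliferation genes 2 and 1 (0.21) and of 3 mural genes 0 and 1 (-0.27). The remaining lists had medians between -0.19 and 0.15: collagens, small proteoglycans, Wnt signalling, endoplasmic reticulum stress, matricellular proteins, mechanosensing, sheath and progenitor genes, tendon transcription factors, angiogenesis, collagen folding, sterol and lipid, TGF-beta signalling, nerve guidance, and the markers of cartilage, lining and Schwann cells.

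**Figure D5:**
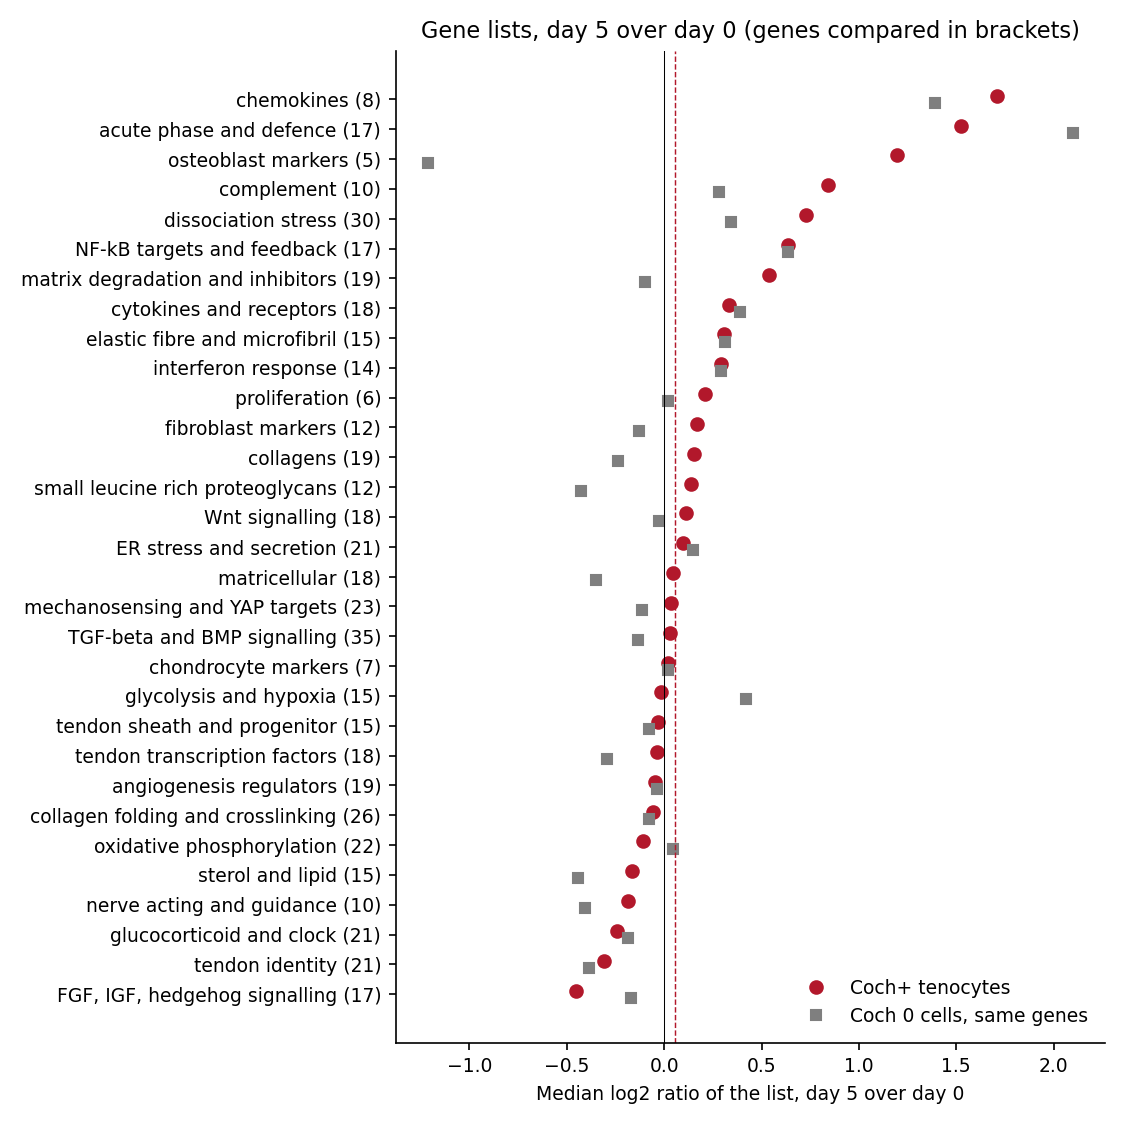
Median log2 ratio of day 5 over day 0 for gene lists with at least 5 genes compared, in Coch+ tenocytes and, for the same genes, in Coch 0 cells; brackets give the number of genes compared and the dashed line is the median of all genes (0.05). Chemokine and acute-phase genes stand highest in the members (1.71 and 1.52), and FGF, IGF and hedgehog genes lowest (-0.45). Without the cells of highest doublet score the chemokine median was 0.46.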

How the data were processed

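Hind paw cells were sequenced in 3 libraries with the 10x 3' kit. The authors made the deposited UMI counts, which are raw whole numbers per gene and cell barcode, using Cell Ranger 6.0.1, per the file headers. The reference was mm10, per the labels' protocols. Seurat 4.3.0 is named in the submitters' processing notes, without a role. Depth was 122224428 UMIs at day 5 and 77842586 at day 0.

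The filters were a minimum of 500 genes and 1000 UMIs and a maximum of 10% mitochondrial UMIs, which kept 11172 of 11900 at day 5 and 7368 of 7740 at day 0. UMIs were summed per class and library and scaled to CPM. For shares the 95% interval is Clopper-Pearson, and for ratios it is exact, conditional on the summed count. Cells are not replicates, and with 1 library per group no test was run. Genes needed at least 20 UMIs over both sums. A gene at 0 was set at 3 counts to give a bound.

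The members and the 37 gene lists were chosen with earlier results of these data known. Named genes were the 12 with the largest ratio in each direction among those with at least 50 CPM and 50 UMIs, with at least 10% of the level of any other class, plus, per list, the member of highest level, 2 on the side of the list's median and 1 on the opposite side. Left out were ribosomal, mitochondrial, globin, immune receptor, sex-linked and predicted genes. Other list members were picked as examples after their values were seen. Scrublet alone marked 0 cells at day 5 and 2 at day 0, which is too few to have worked, so doublets were kept. The cells of highest score, at 0.8% per 1000 barcodes, were left out as an alternative. They were 16 of 116 members and 1064 of 11172 kept cells at day 5, and 4 of 30 members and 456 of 7368 kept cells at day 0. The share was thus larger in the members than in the library at both days. Coordinates are from GENCODE on mm10 and gene starts from RefSeq on GRCm38.p6.

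Tested on simulated sums of 4345 genes with Poisson error only, the method gave the right direction for 66 of 67 genes changed 1.5-fold. Tools were Python 3.11.15, SciPy 1.17.1, scanpy 1.11.5, and, for scaling alone, edgeR 4.0.16 and DESeq2 1.42.0 in R 4.3.3. Alternatives were other cell filters, Coch and Fmod thresholds, doublet removal, scaling, weighting of cells, thinning to 5000 UMIs, count minimum, leukocyte RNA and comparison cells. The minimum of 10 expected UMIs, a Coch minimum of 20 and sums without the highest cell of each gene were added after seeing the data. In the last, the highest cell's UMIs of the gene were taken out of each library's sum and the totals were kept. This tends to raise day ratios, because day 0 had fewer members.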

Additional observations from a re-analysis of the deposited data

Results flagged for a closer look

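Mmp13, a collagenase gene, differed between the days in opposite directions in the 2 classes. It had 146 UMIs at day 5 and 1 UMI at day 0 in Coch+ tenocytes and a day ratio of 0.647 in Coch 0 cells, and the ratio of the day ratios was 57.5. Of the members' day 5 UMIs, 96.6% lay in 1 cell. The difference was not tested.

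In the myeloid library of day 9, which enters no comparison here, 56 UMIs of Fmod and 8 UMIs of Wif1 were counted in 5945 kept cells, above the 3 counts that a count of 0 allows. Coch and Kera had 0 UMIs there.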

How the results depend on the processing

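No paired analysis was possible because each group has 1 library, so the groups share replicate number 1 alone. The count of genes at least 1.5-fold higher at day 5, 1492, was 896 of 4332 genes after thinning to 5000 UMIs, 2910 of 13835 with no count minimum, 989 of 5143 in members with Kera and 608 of 4345 with at least 10 UMIs expected in each sum. As a share of the genes compared these were 20.7%, 21.0%, 19.2% and 14.0%, against 19.8%. The count lower at day 5, 832, was 2597 with no minimum and 334 with at least 10 expected. For members against Coch 0 cells, the 275 genes higher in both libraries were 2732 with no minimum and 48 with at least 10 expected. The 1180 lower were 752 against Coch 0 cells that also had Kera, Tnmd or Wif1 and 205 with at least 10 expected. The day 5 share of kept cells was 1.28% with Coch at 1 or more and 0.618% with Coch at 20 or more. The day 5 share of Fmod cells was 7.86% and 3.79%, and 7.64% with the rule applied after thinning. The ratio of shares stayed between 2.17 and 2.72 under all alternatives run.

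Day ratios that changed direction were Ccl7 (0.936), Smoc2 (0.906) and Rbp4 (1.14) without the cells of highest Scrublet score, Ccn3 (1.68) in members with Wif1, Mmp13 (0.918) and Rgcc (1.09) in members with Kera, Loxl1 (0.730) and Smoc2 (0.697) after thinning, Chodl (0.554), Smoc2 (0.973) and Sparcl1 (0.571) with Coch at 1 or more, and Rbp4 (4.08) without the highest cell. Ratios of members over Coch 0 cells that did so were Bglap2 at day 5 (1.42) against the narrower Coch 0 cells, and at day 0 Chodl (4.03) and Sfrp2 (1.31) with Coch at 1 or more. The cause was not tested. Of 2559 other values of the day ratio, 2357 stayed and 190 moved in size. The day 0 sum of 30 members limits all day ratios.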

Other observations

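Some cells carried Coch with little or no Fmod, and they were a mix. At day 5, 42 kept cells had at least 2 Coch UMIs and fewer than 3 of Fmod, and at day 0 there were 13, with 1041 and 391 Coch UMIs. Their Coch level was 2215 CPM at day 5 and 2362 CPM at day 0. Thbs4 was at 230 CPM at day 5, against 78.5 CPM at day 0 in them, against 3866 and 3727 CPM in Coch+ tenocytes. Lubricin (Prg4) was at 8427 and 29420 CPM, and the lining marker Htra4 at 621 and 1353 CPM against 45.6 and 60.6 CPM in Coch+ tenocytes. Hhip, an inhibitor of hedgehog ligands, was at 213 CPM at day 5, against 411 CPM at day 0. Clic5, a lining marker, was at 183 and 622 CPM, against 3.51 and 2.75 CPM in Coch+ tenocytes. Genes of mural and endothelial cells also led in a few of them: Rgs5 was at 198 CPM at day 5, in 9.52% of these cells, and at 652 CPM at day 0, in 15.4%, and at day 0 Plvap was at 773 CPM and Pecam1 at 169 CPM. Ibsp was at 211 and 266 CPM. These cells were chosen after their values were seen, and the values of the days are set side by side with no ratio.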
